A study of Mus musculus with 12 samples.

Results

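The proteasome genes described here were the protein-coding genes whose symbol began with Psma, Psmb, Psmc or Psmd followed by a number, without the 3 interferon-inducible genes Psmb8, Psmb9 and Psmb10. This rule found 37 of the 22048 protein-coding genes in the table and used no measured value. They comprised 31 subunits of the 26S proteasome (14 of the 20S core and 17 of the 19S regulatory particle), 3 assembly chaperones of the 19S particle (Psmd5, Psmd9 and Psmd10), 2 tissue-restricted paralogs of core subunits (Psma8 and Psmb11), and Psmc3ip, a meiotic recombination factor that carries a matching symbol but is no subunit. The study measured polyadenylated RNA in peritoneal macrophages of C57BL/6 mice cultured with or without SPARC, a matricellular protein that cells secrete into the extracellular matrix. TG macrophages came from mice given 1 intraperitoneal injection of 3% thioglycollate, a sterile irritant, 4 days before lavage. IL4c macrophages came from mice given 2 injections of an IL-4 complex, 5 ug of IL-4 held by 25 ug of antibody, the last of them 2 days before lavage. In each of the 4 groups the cells that stuck to the plate within 2 h were kept, and they were left untreated or given SPARC at 20 ug/ml for 24 h, with 3 libraries per group. The labels give no age or sex and do not say whether libraries of a group came from separate mice, so that p-values measure only the spread between these libraries, which may be technical. In such bulk RNA, fewer cells of a type and less RNA per cell cannot be told apart.

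The proteasome is the main protease of the cytosol and nucleus and breaks down proteins that carry ubiquitin chains. Its barrel, the 20S core, has outer alpha rings that gate the entrance and inner beta rings whose catalytic subunits Psmb5, Psmb6 and Psmb7 cut after hydrophobic, acidic and basic residues. The 19S particle caps the barrel: a base with ATPases unfolds the substrate, and a lid removes its ubiquitin. In macrophages exposed to interferon, Psmb8, Psmb9 and Psmb10 replace the constitutive catalytic subunits in newly built cores, which changes the peptides made for antigen presentation.

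Most subunit genes rose with SPARC, and Psmd10 had the largest change. The subunits Psmb6, Psmd6, Psmd8, Psmd12 and Psmd14 and the chaperone Psmd5 passed in neither injection. Promoter sequences are shown in full for Psmb5, Psmb6, Psmd10 and Psmd8, picked from all these for their outlying values. Each runs 5′ to 3′ on the gene's own strand over the 250 bases before the transcription start given by RefSeq (GRCm38.p6). Capitals mark matches on either strand to TGACNNNGC, a core of the antioxidant response element bound by NRF1 and NRF2 with small MAF proteins, and to CCAAT, the box bound by NF-Y.
Psmb5: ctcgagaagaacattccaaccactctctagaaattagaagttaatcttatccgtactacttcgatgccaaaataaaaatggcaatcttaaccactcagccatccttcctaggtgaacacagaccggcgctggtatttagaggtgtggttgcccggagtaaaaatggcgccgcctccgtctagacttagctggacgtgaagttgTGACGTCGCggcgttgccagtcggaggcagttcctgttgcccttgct
Psmb6: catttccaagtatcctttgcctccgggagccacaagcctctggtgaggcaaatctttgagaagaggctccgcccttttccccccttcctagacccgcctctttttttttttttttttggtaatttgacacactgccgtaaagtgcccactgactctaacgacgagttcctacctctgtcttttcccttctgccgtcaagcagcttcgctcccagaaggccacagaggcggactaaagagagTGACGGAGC
Psmd10: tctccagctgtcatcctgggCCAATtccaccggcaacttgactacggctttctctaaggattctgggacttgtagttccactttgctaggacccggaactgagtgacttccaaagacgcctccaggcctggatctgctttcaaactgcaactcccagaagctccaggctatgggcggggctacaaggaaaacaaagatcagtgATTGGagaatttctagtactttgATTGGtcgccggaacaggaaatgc
Psmd8: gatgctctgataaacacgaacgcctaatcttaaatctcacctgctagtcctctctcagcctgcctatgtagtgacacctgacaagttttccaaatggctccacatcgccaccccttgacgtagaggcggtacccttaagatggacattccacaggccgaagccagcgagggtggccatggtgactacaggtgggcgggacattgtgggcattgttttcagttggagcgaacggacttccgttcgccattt
They lay at chr14:54617996-54618245 on the minus strand, chr11:70525107-70525356 on the plus strand, chrX:140956712-140956961 on the minus strand and chr7:29180674-29180923 on the minus strand. Counting the base before the start as -1, the Psmb5 match, TGACGTCGC, began at -47 and the Psmb6 match, TGACGGAGC, at -9. The Psmd10 stretch held 3 CCAAT boxes and no TGACNNNGC, and the Psmd8 stretch held neither. A RefSeq promoter (250 bases before to 50 after the start) was matched for 30 of the 37 genes. Of these, 5 (16.7%) held TGACNNNGC, against 14.0% of the 27025 genes with a promoter in the same table and 17.2% of the 9773 protein-coding genes among them that were tested here. CCAAT was held by 13 (43.3%), against 41.1% and 42.8%. The shares of the proteasome genes were near these backgrounds. The other 3 TGACNNNGC matches are shown with up to 10 bases on each side, in capitals as they read on the gene's strand, for Psmc6 and Psmd12, whose matches lie on the opposite strand, and for the chaperone Psmd9.
Psmc6: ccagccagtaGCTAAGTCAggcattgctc
Psmd12: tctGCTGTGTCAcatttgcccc
Psmd9: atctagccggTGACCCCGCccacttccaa
These stretches lay at chr14:45329587-45329615, chr11:107479278-107479299 and chr5:123228149-123228177, all in genes on the plus strand, and the matches in them began at -227, -247 and -31. A match is a run of letters and not a measured binding site.

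Libraries held 31501941 to 42288785 counts. All 7 macrophage markers were present in every group. Their summed level was 22020 to 34602 CPM (counts scaled to a common library size, with trimmed mean of M values factors) in TG untreated, 29940 to 30806 in TG SPARC, 20250 to 27683 in IL4c untreated and 12660 to 18548 in IL4c SPARC libraries, so that it was lower with SPARC in IL4c, without overlap. The single markers were split in direction. Of the 8 gene entries with these symbols, 4 had a log2 fold change above 0 with SPARC in IL4c (median 0.04, range -1.61 to 4.26). There 1 rose and 2 fell (edgeR adjusted p under 0.05), where 15.1% of all genes tested rose and 12.7% fell. The TG libraries numbered 1, untreated and SPARC, stood apart. Their 7 B cell markers summed to 2248 and 1758 CPM, against 163 to 262 in the other TG libraries, 140 to 358 in IL4c untreated and 71.4 to 159 in IL4c SPARC libraries. Their 6 proliferation genes summed to 149 and 190 CPM, against 38.9 to 52.2 in the other TG libraries. The IL4c libraries numbered 3 had proliferation sums of 253 and 241 CPM, against 70.2 to 94.6 in the other IL4c libraries. T cell, neutrophil, eosinophil, mast cell and mesothelial marker sums were each at most 13.4 CPM.

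SPARC-treated macrophages of either injection had more transcript of most proteasome subunits. Of the 37 genes, 36 passed the filter on low counts. In TG macrophages 18 of the 36 (50%) rose with SPARC and 0 fell (edgeR quasi-likelihood test, Benjamini-Hochberg adjusted p under 0.05), where 6.73% of all 15232 genes tested rose and 4.52% fell. In IL4c macrophages 28 of the 36 (77.8%) rose and 0 fell, where 15.1% of all genes rose and 12.7% fell. The median log2 fold change of the 36 was 0.39 in TG (1.31-fold), against -0.03 over all genes tested, and 0.49 in IL4c (1.40-fold), against 0.00. The changes were thus small and ran one way: 34 of the 36 estimates were above 0 in TG and 35 in IL4c. Every SPARC library was above every untreated library for 31 of the 36 genes in TG (background 16.2% of all genes) and for 29 in IL4c (background 25.5%). At an unadjusted p under 0.05 there were 25 of the 36 in TG and 30 in IL4c, against 4049 and 6052 of all genes. DESeq2 called 22 and 29 of the 36 higher and 0 lower in either, and the share of all genes it called is not given here. The genes that rose in TG were all among those that rose in IL4c: 18 rose in both, 10 in IL4c, and 8 passed in neither (Psmb6, Psmd5, Psmd6, Psmd8, Psmd12, Psmd14, Psma8 and Psmc3ip). Passing in IL4c and not in TG is not a tested difference, which is given further on. Of the 7 B cell markers all 7 estimates were below 0 in either injection, with medians of -0.54 in TG (0 passed, 1 at an unadjusted p under 0.05) and -1.03 in IL4c (1 fell). The part of this shift, and of the lower macrophage marker sum in IL4c SPARC libraries, in the rises was not tested.

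**Figure D1:**
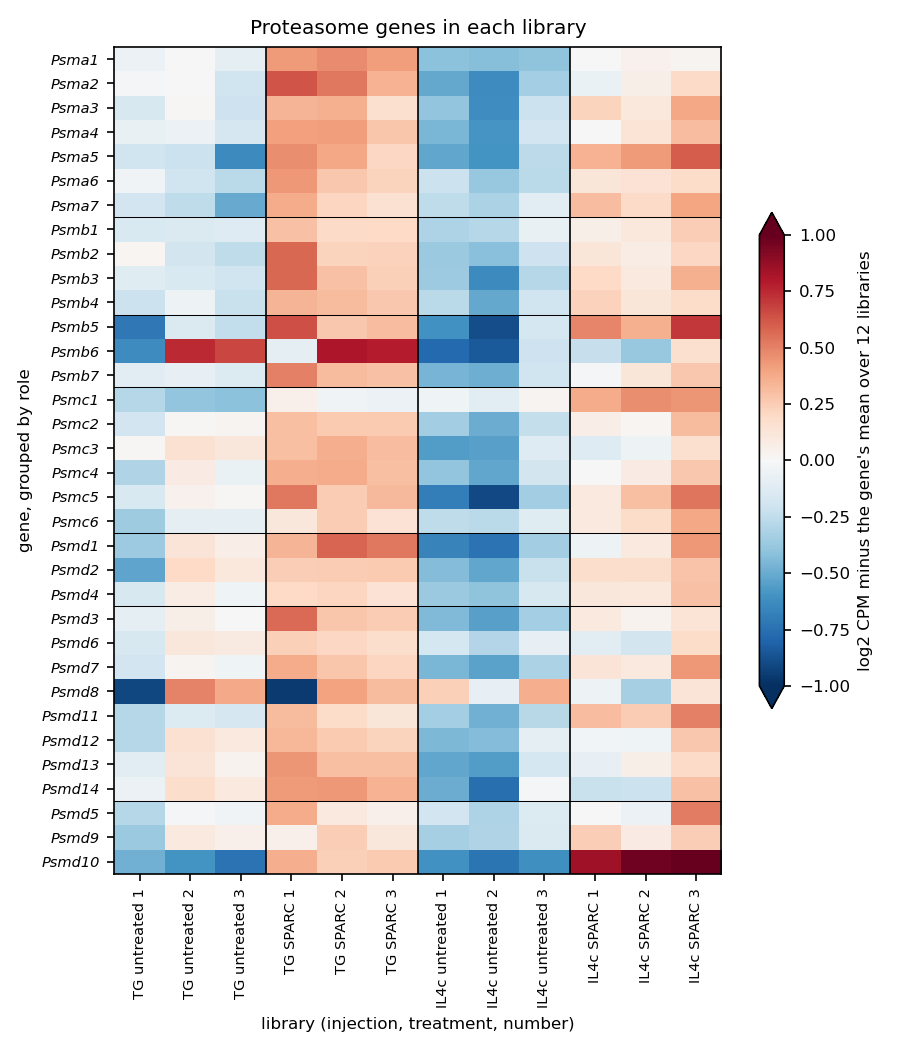
Each row is a proteasome gene (34 genes, without Psma8, Psmb11 and Psmc3ip), grouped from top to bottom as alpha ring, beta ring without active site, catalytic beta, base ATPases, other base subunits, lid and chaperones, and each column is a library. Colour is the log2 CPM minus the gene's mean over the 12 libraries. SPARC columns are redder than untreated columns in most rows. Psmd8 stands out as low in the TG libraries numbered 1, and Psmb6 as high in the TG libraries numbered 2 and 3.

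The TG count depended on the settings: it was 8 without TG untreated library 3, 12 without both TG libraries numbered 1, 10 with scaling by total counts, 10 on log2(FPKM + 1) and 8 in a fit of the TG libraries alone, with 0 lower in each. With the library number as a block, which pairs the libraries of an injection, 27 of the 36 rose in TG, among them all 18, and in IL4c 32 were higher, among them all 28, and 1 was lower. On leaving out any 1 of the 12 libraries, 8 of the 18 TG calls and 21 of the 28 IL4c calls were kept every time. The shares of all genes given above are those of the main fit. They are not the background of counts under other settings, such as the block or DESeq2.

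The products of the 7 alpha ring genes form the gated outer ring. All 7 genes rose in IL4c (1.35- to 1.89-fold) and 6 rose in TG (1.38- to 1.62-fold). Psma5 had the largest change of the ring. Its level was 54.9, 54.5 and 40.6 CPM in TG untreated libraries 1 to 3 and 87.3, 82.5 and 72.8 CPM with SPARC, a log2 change of 0.69 ± 0.14 (SE, n = 3 per group, edgeR adjusted p = 0.0129). In IL4c it was 44.1, 41.9 and 52.6 CPM untreated and 80.4, 85.1 and 96.0 CPM with SPARC, a change of 0.92 ± 0.14 (adjusted p = 0.00122). The SPARC libraries lay above the untreated ones in either injection, with no overlap. Psma2 went from 70.1, 70.4 and 61.8 to 110, 102 and 90.3 CPM in TG (0.58 ± 0.11, adjusted p = 0.00956) and from 49.7, 45.9 and 56.0 to 67.5, 73.6 and 80.7 CPM in IL4c (0.55 ± 0.11, adjusted p = 0.00455). Again no SPARC library fell among the untreated. Psma1 had the tightest replicates of the ring, with 84.4 ± 3.06 CPM in TG untreated and 118 ± 2.39 with SPARC, and 65.6 ± 0.64 and 88.9 ± 1.19 CPM in IL4c (mean ± SD, n = 3). It rose by 0.49 ± 0.05 in TG and by 0.44 ± 0.05 in IL4c. Psma3 did not pass in TG, at 0.40 ± 0.12 (adjusted p = 0.0553, and 0.00330 with the block; 3 of 3 pairs higher), and rose in IL4c by 0.64 ± 0.12.

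The 4 beta ring genes without an active site, Psmb1 to Psmb4, rose in either injection, by 1.30- to 1.45-fold in TG and 1.28- to 1.56-fold in IL4c. Psmb3 had the largest changes of the 4, at 0.53 ± 0.12 in TG and 0.64 ± 0.12 in IL4c, and Psmb1 the smallest, at 0.37 ± 0.08 and 0.36 ± 0.08. In TG the calls of Psmb1, Psmb2 and Psmb3 were lost without TG untreated library 3 (adjusted p = 0.0512, 0.0684 and 0.0587).

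Of the 3 catalytic genes, Psmb5 and Psmb7 rose in either injection, and Psmb6, with wide errors, passed in neither. Psmb5, which carries the chymotrypsin-like site and is the target of bortezomib, had 44.8, 66.6 and 62.1 CPM in TG untreated libraries and 115, 88.6 and 90.9 CPM with SPARC. In IL4c it had 48.3, 39.7 and 65.1 CPM untreated and 103, 93.9 and 120 CPM with SPARC. All 6 SPARC libraries were above all 6 untreated ones. The change was 0.76 ± 0.20 in TG (1.70-fold, adjusted p = 0.0404) and 1.05 ± 0.21 in IL4c (2.07-fold, adjusted p = 0.00487), the largest estimates of the 31 subunits. The TG call held when IL4c untreated library 2 or 3 or IL4c SPARC library 3 was left out and was lost when any of the other 9 libraries was (adjusted p from 0.0542 to 0.105). Psmb7, with the trypsin-like site, rose by 0.48 ± 0.10 in TG, from 53.3, 54.6 and 52.7 to 81.9, 72.1 and 70.7 CPM (adjusted p = 0.0153), and by 0.51 ± 0.10 in IL4c, from 41.8, 41.3 and 50.4 to 57.3, 62.8 and 69.7 CPM (adjusted p = 0.00510). No SPARC library overlapped the untreated ones, and the TG call was lost without TG untreated library 3 (adjusted p = 0.0538).

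Psmb6, with the caspase-like site, had 55.8, 145 and 137 CPM in TG untreated libraries and 80.7, 151 and 149 CPM with SPARC. In IL4c it had 50.3, 48.3 and 74.8 CPM untreated and 73.6, 66.3 and 96.5 CPM with SPARC. The 4 TG libraries numbered 2 and 3 were higher than the other 8. The untreated and SPARC libraries overlapped in either injection, in TG through the low libraries numbered 1 and in IL4c because untreated library 3 lay above SPARC libraries 1 and 2. Neither change passed, at 0.17 ± 0.36 in TG (adjusted p = 0.817) and 0.45 ± 0.37 in IL4c (adjusted p = 0.406), although the SPARC library was the higher in 3 of 3 pairs of either injection. Within numbers, with the block, the IL4c change passed (adjusted p = 0.00760) and the TG change did not (adjusted p = 0.110). The low TG libraries are those with the high B cell and proliferation marker sums, and the part of those cells in the Psmb6 values was not tested.

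**Figure D2:**
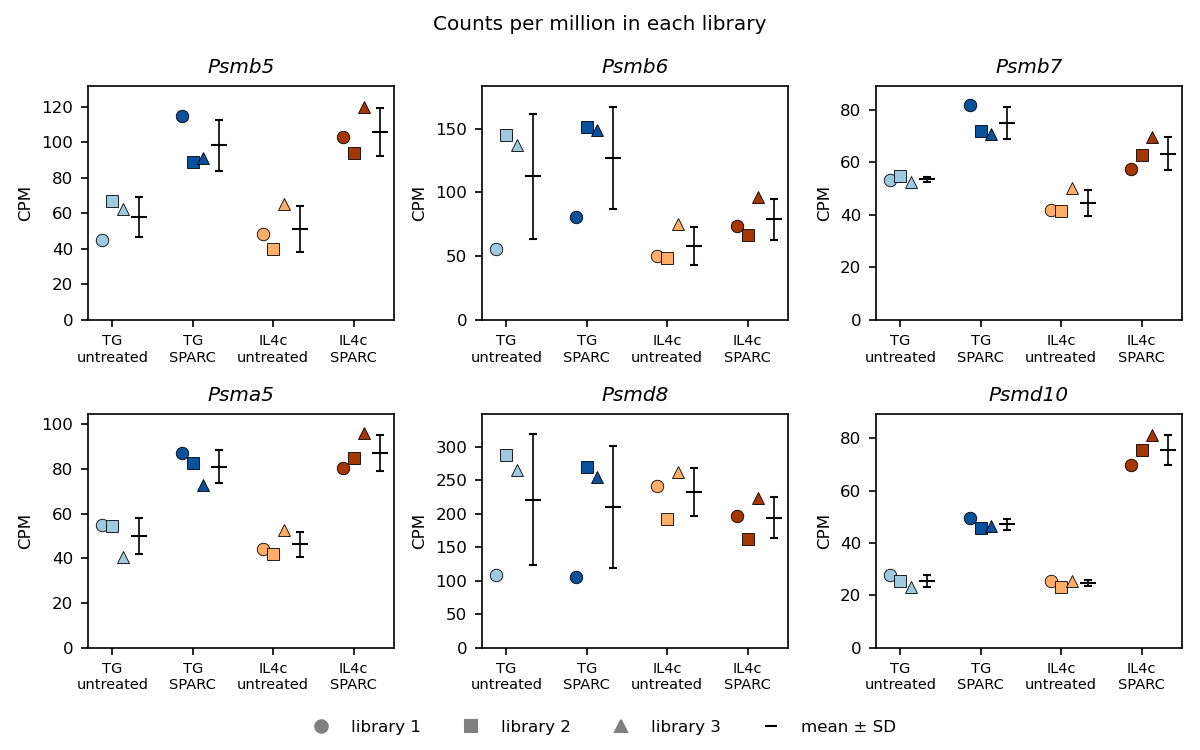
CPM (vertical axis, from 0) of 6 genes in the 4 groups, with the marker shape giving the library number and the bar the mean ± SD of 3 libraries. Psmb5, Psmb7, Psma5 and Psmd10 show SPARC libraries above untreated libraries in either injection, while Psmb6 and Psmd8 have the TG libraries numbered 1 far below those numbered 2 and 3.

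The 6 base ATPases, Psmc1 to Psmc6, form the ring that pulls substrates into the core. All 6 rose in IL4c (1.31- to 1.93-fold), and 3 rose in TG (Psmc1, Psmc4 and Psmc6, 1.27- to 1.35-fold). Psmc5 moved most in IL4c, from 32.5, 28.2 and 41.2 CPM to 56.3, 64.6 and 76.3 CPM, a rise of 0.95 ± 0.15 (1.93-fold, adjusted p = 0.00166). In TG it had 47.4, 54.2 and 52.9 CPM untreated and 75.7, 62.8 and 65.9 CPM with SPARC, a change of 0.40 ± 0.15 that did not pass (adjusted p = 0.116, and 0.0325 with the block). The libraries did not overlap in either injection. Psmc1 was the steadiest of the 6, at 80.2 ± 3.84 and 102 ± 4.04 CPM in TG and 100 ± 4.79 and 139 ± 4.43 CPM in IL4c (n = 3), with rises of 0.35 ± 0.07 and 0.47 ± 0.07. Of the TG calls, that of Psmc4 was lost on leaving out any of 9 of the 12 libraries (adjusted p from 0.0517 to 0.124), and that of Psmc6 on leaving out any of the 12 (adjusted p from 0.0543 to 0.172). The IL4c call of Psmc3 (0.39 ± 0.12, adjusted p = 0.0333), whose libraries overlapped, was lost on leaving out any of 8 of the 12 libraries (adjusted p up to 0.132) and on log2(FPKM + 1) (adjusted p = 0.111). With the block Psmc2 and Psmc3 passed in TG as well (adjusted p = 0.0127 and 0.0261).

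The other base subunits, the scaffolds Psmd1 and Psmd2 and the ubiquitin receptor Psmd4, rose in IL4c by 0.75 ± 0.17, 0.60 ± 0.17 and 0.48 ± 0.09. None of the 3 passed in TG, where the changes were 0.53 ± 0.17, 0.29 ± 0.16 and 0.23 ± 0.09 (adjusted p = 0.0750, 0.296 and 0.139). With the block, Psmd1 and Psmd4 passed in TG (adjusted p = 0.00274 and 0.0304) and Psmd2 did not (adjusted p = 0.118). All 9 TG SPARC values of these genes nevertheless lay above the untreated values of the same gene. Psmd2 had 161 CPM in TG untreated library 1 against 266 and 250 in the others, and 276, 276 and 278 CPM with SPARC.

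Of the 8 lid genes, 4 rose in IL4c (Psmd3, Psmd7, Psmd11 and Psmd13, 1.38- to 1.65-fold) and 2 in TG (Psmd3 and Psmd11, 1.30- and 1.33-fold). Psmd14, the deubiquitinating enzyme of the lid, did not pass at 0.33 ± 0.19 and 0.36 ± 0.19. Its values in IL4c were high in the libraries numbered 3 (49.6 untreated and 61.5 with SPARC, against 29.9 to 43.3 CPM in the others). This was not particular to Psmd14, since the median level of all subunits, given further on, was also highest in those libraries. They are the ones with high proliferation sums, and a link was not tested. Psmd14 passed with the block in TG (adjusted p = 0.0173) and in IL4c (adjusted p = 0.00661). With the block Psmd7 and Psmd13 also passed in TG (adjusted p = 0.0136 and 0.0311) and Psmd12 in IL4c (adjusted p = 0.0171). Psmd6 was among the smallest changes in IL4c, from 48.3, 44.5 and 51.6 CPM to 50.6, 48.0 and 61.8 CPM (0.15 ± 0.11, adjusted p = 0.332), with overlapping groups. In TG it had 48.8, 58.9 and 57.9 CPM untreated and 64.3, 62.8 and 61.7 with SPARC (0.19 ± 0.11, adjusted p = 0.301).

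Psmd8, a lid subunit needed to complete lid assembly, was the exception in direction. It had 109, 289 and 266 CPM in TG untreated libraries and 105, 270 and 255 CPM with SPARC, a change of -0.07 ± 0.40 (adjusted p = 0.935). In IL4c it had 241, 193 and 263 CPM untreated and 197, 162 and 224 CPM with SPARC, a change of -0.26 ± 0.40 (adjusted p = 0.672). The groups overlapped, yet the SPARC library was the lower in every one of the 6 pairs, and with the block the IL4c change passed (-0.26, adjusted p = 0.00903) while the TG change did not (adjusted p = 0.411). As for Psmb6, the TG libraries numbered 1 were the low ones. The spread between libraries of a group exceeded the change by SPARC in TG.

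Among the 3 assembly chaperones, Psmd10 (gankyrin, which escorts the ATPase Psmc4 into the base and is also known as an oncoprotein) had the largest change of all 36 genes tested. It lies on chromosome X from 140948429 to 140956728 on the minus strand (GRCm38). Its level was 27.7, 25.6 and 23.2 CPM in TG untreated libraries and 49.6, 45.7 and 46.4 CPM with SPARC. In IL4c it was 25.4, 23.3 and 25.3 CPM untreated and 69.7, 75.7 and 81.4 CPM with SPARC. The 6 untreated libraries of the 2 injections were alike, the TG SPARC libraries came next and the IL4c SPARC libraries highest, with no overlap between these 3 sets. It rose by 0.89 ± 0.09 in TG (1.85-fold, adjusted p = 0.000484) and by 1.62 ± 0.09 in IL4c (3.06-fold, adjusted p = 8.56e-06), and either call held on leaving out any of the 12 libraries. Psmd9 rose in IL4c by 0.45 ± 0.12 (adjusted p = 0.0224) and was at 0.20 ± 0.12 in TG. Psmd5 passed in neither, at 0.28 ± 0.15 in TG and 0.39 ± 0.15 in IL4c.

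**Figure D3:**
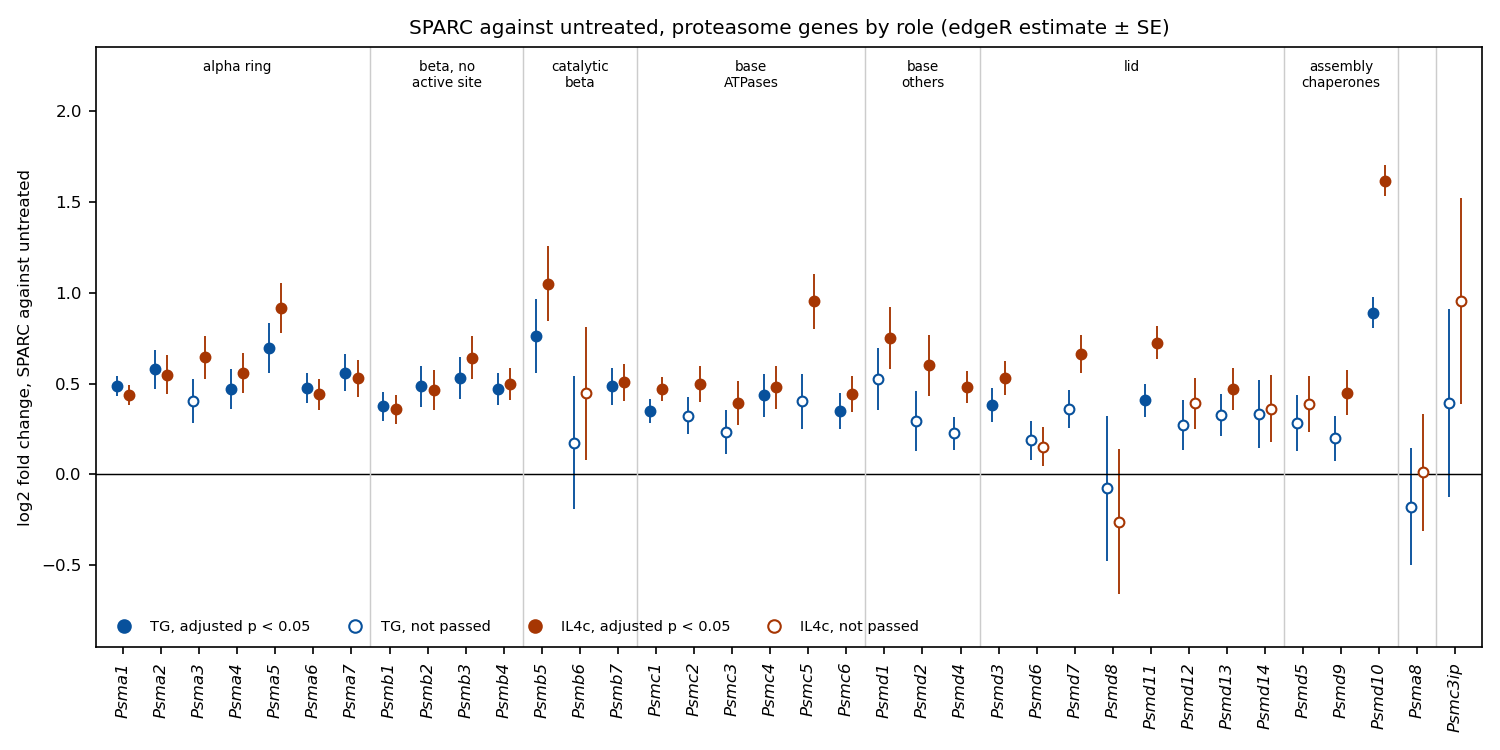
Log2 fold change of SPARC against untreated (vertical axis) for the 36 genes tested, grouped by role, with TG in blue and IL4c in orange. The last 2 genes are the paralog Psma8 and Psmc3ip, bars are ± 1 SE of the edgeR estimate, and filled points passed at an adjusted p under 0.05. Most points lie above 0, Psmd10 lies highest, and Psmb6 and Psmd8 have the widest bars of the 31 subunits.

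The symbols outside the standard particle carried little RNA. Psmb11, the catalytic subunit of the thymic proteasome, lies 3410 bases downstream in coordinate from Psmb5 on chromosome 14 (54621433 to 54629556, plus strand) and had 1 count in each of 2 TG libraries and 0 in the other 10, so it was not tested. Psma8, the alpha subunit of the testis proteasome, had 1.39, 1.77 and 2.18 CPM in TG untreated libraries, 1.46, 1.32 and 1.94 with SPARC, 1.98, 1.03 and 1.76 in IL4c untreated and 1.69, 1.11 and 2.01 with SPARC. All 4 groups overlapped, and the changes were -0.18 ± 0.32 in TG and 0.01 ± 0.32 in IL4c. Psmc3ip had 0.97, 0.57 and 0.60 CPM in TG untreated, 1.43, 0.75 and 0.65 with SPARC, 0.13, 0.21 and 0.32 in IL4c untreated and 0.19, 0.37 and 0.75 with SPARC. It passed in neither SPARC comparison (adjusted p = 0.690 and 0.243), although with the block it passed in IL4c (adjusted p = 0.0458). Reads over 385 of its exonic bases may belong to Mlx, which overlaps it on the other strand.

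In the untreated cultures, which were kept for the same 24 h, IL4c macrophages had less transcript of several subunits than TG macrophages. Of the 36 genes, 8 were lower (22.2%, where 10.8% of all genes were lower) and 1 was higher (where 10.2% were), with a median of -0.27 against -0.05 over all genes. All 3 IL4c untreated libraries were below all TG untreated libraries for 13 of the 36 (background 20.7%). The 8 were Psma1, Psma2, Psmc3, Psmc5, Psmd1, Psmd3, Psmd7 and Psmd13. Psmc5 had the largest decrease, -0.60 ± 0.15 (adjusted p = 0.0210), from the TG and IL4c untreated values given above, which did not overlap. Psmd1 had 105, 148 and 142 CPM in TG and 84.9, 81.0 and 106 CPM in IL4c, groups that overlapped by 1 library (-0.54 ± 0.17, adjusted p = 0.0485). Psmc3 had 78.5, 86.6 and 84.1 CPM in TG and 52.8, 53.5 and 71.2 in IL4c (-0.49 ± 0.12, adjusted p = 0.0189). Psmd13 had 52.1, 61.8 and 58.0 CPM in TG and 39.3, 38.3 and 49.8 in IL4c (-0.43 ± 0.12, adjusted p = 0.0271). For the last 2 genes the groups did not overlap, and in all 4 genes the IL4c library numbered 3 was the highest of its group.

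Psmc1, the 1 gene that was higher in IL4c, had 84.7, 78.4 and 77.7 CPM in TG untreated and 100, 95.4 and 105 CPM in IL4c untreated (0.32 ± 0.07, adjusted p = 0.0101). Psmd10 (-0.05 ± 0.08) and Psmc6 (-0.04 ± 0.10) had the smallest estimates. Of the catalytic genes none passed: Psmb5 was at -0.18 ± 0.20, Psmb6 at -0.96 ± 0.37 (adjusted p = 0.0901) and Psmb7 at -0.27 ± 0.10 (adjusted p = 0.0859). Psma8 was at -0.16 ± 0.32 and Psmc3ip at -1.67 ± 0.56 (adjusted p = 0.0589). Scaling by total counts moved the median of all genes by -0.11 in this comparison, and then 0 of the 36 were higher and 17 lower, with medians of -0.37 for the 36 and -0.16 for all genes. Single libraries decided much of the count: it was 1 lower without TG untreated library 2 or IL4c untreated library 2, 2 without IL4c untreated library 1, 3 without TG untreated library 3, 5 without TG SPARC library 2 or 3, 13 without IL4c untreated library 3 and 15 without TG untreated library 1. The calls of Psma1 and Psmc1 held on leaving out any library.

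Whether SPARC acted differently after the 2 injections was tested directly. Of the 36 genes, 0 passed in either direction (background 0% higher and 0% lower over all genes), and 3 had an unadjusted p under 0.05, where 1612 of all 15232 did. The estimates, IL4c minus TG, had a median of 0.13 against 0.02 over all genes, and 28 of the 36 were above 0. These values depended on single libraries and on scaling. The median was 0.025 without IL4c SPARC library 3 (21 above 0) and 0.24 without IL4c untreated library 3 (33 above 0). With total-count scaling it was 0.20 (35 above 0), against 0.09 over all genes. Psmd10 had the largest, 0.73 ± 0.12 (adjusted p = 0.147). It was the 1 gene of the 36 that passed with DESeq2 (adjusted p = 6.45e-06), with the block (0.72 ± 0.10, adjusted p = 0.0235), without TG untreated library 1 (adjusted p = 0.0245) and without TG SPARC library 1 (adjusted p = 0.0436), and it did not pass on leaving out any of the other 10 libraries (adjusted p up to 0.380). The shares of all genes that passed in those fits are not given here. Psmc5, with the largest estimate of the 31 subunits, was at 0.55 ± 0.21 (adjusted p = 0.394). Psmb5 was at 0.29 ± 0.29, Psmb6 at 0.27 ± 0.52 and Psmb7 at 0.02 ± 0.14, and the smallest estimates belonged to Psmb1 (-0.01 ± 0.11) and Psmb2 (-0.02 ± 0.16), which turned positive with total-count scaling and on FPKM.

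Compared per length, in FPKM (fragments per kilobase of transcript, scaled to the library total), the 31 subunits spanned a narrow range of levels. In TG untreated macrophages the highest, Psmd8 at 187 ± 75.4 FPKM, was 6.10 times the lowest, Psmd12 at 30.6 ± 3.67 FPKM (n = 3). Psmb6 at 162 ± 66.5 FPKM and Psma3 at 109 ± 8.50 FPKM came next, with mean ± SD ranges that overlapped that of Psmd8. The ratio of highest to lowest was 5.16 in TG SPARC, 8.26 in IL4c untreated and 5.21 in IL4c SPARC macrophages. In IL4c untreated macrophages Psmd8 was at 185 FPKM and the second gene, Psma7, at 84.7 FPKM. The library medians of the 31 were 60.0 to 62.0 FPKM in TG untreated, 75.9 to 80.5 with SPARC, 44.7 to 58.2 in IL4c untreated and 68.1 to 79.0 with SPARC. SPARC libraries were thus above untreated libraries in either injection, and IL4c libraries lay lower without SPARC. Within IL4c the libraries numbered 3 had the highest medians, 58.2 untreated against 45.5 and 44.7, and 79.0 with SPARC against 68.1 and 70.0. The 31 together took 0.344% to 0.419% of all FPKM in TG untreated, 0.423% to 0.470% with SPARC, 0.263% to 0.323% in IL4c untreated and 0.353% to 0.421% with SPARC.

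The rank order of the subunits changed little between groups: Spearman's rho over the 31 genes was 0.965 between TG untreated and SPARC, 0.946 between IL4c untreated and SPARC and 0.958 between the untreated groups, as a description of group means that share gene lengths and mappability. Psmd8 was highest in 3 of the 4 groups and Psmb6 in TG SPARC. Psmd12 and Psmd3 were the lowest pair in all 4. Their means were 22.8 ± 3.01 and 22.5 ± 1.74 FPKM in IL4c untreated, within the SDs, and 34.1 ± 0.83 and 40.9 ± 5.58 FPKM in TG SPARC, where the libraries of the 2 genes did not overlap. The median of the core genes per length was above that of the 19S genes in every library, with a ratio of medians of 1.56 to 1.97. Single genes did not all follow, since Psmd8 is a 19S gene. That ratio was 1.75 to 1.88 in IL4c untreated and 1.64 to 1.68 in IL4c SPARC libraries, without overlap, and 1.56 to 1.97 in TG untreated around 1.93 to 1.95 in TG SPARC.

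**Figure D4:**
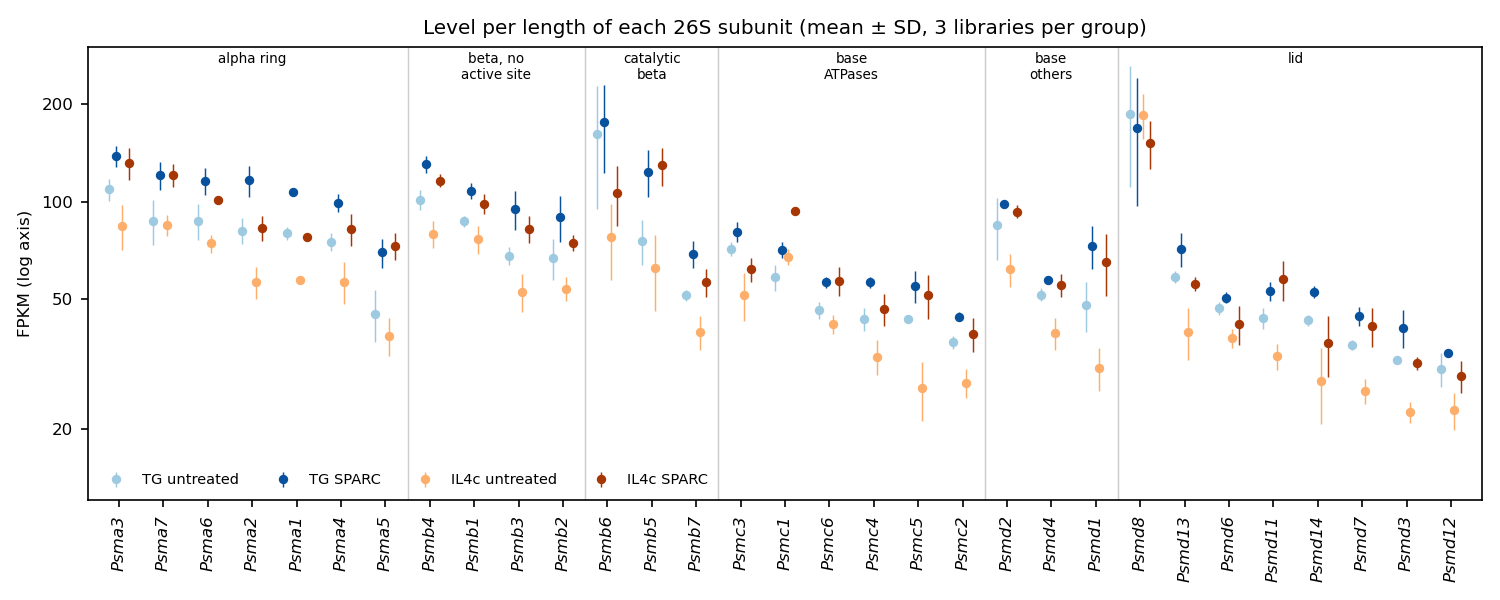
FPKM (log axis) of the 31 subunits in the 4 groups as mean ± SD of 3 libraries, ordered within each role by the TG untreated mean. Light points are untreated and dark points SPARC. Dark points sit above light points of the same injection for most genes, and the long bars of Psmb6 and Psmd8 in TG reflect the library numbered 1.

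The 3 inducible catalytic genes left out of the rule had larger estimates than the constitutive genes they replace. Psmb8 had 99.0, 122 and 60.1 CPM in TG untreated and 246, 249 and 220 CPM with SPARC, a rise of 1.35 ± 0.21 (adjusted p = 0.00446). In IL4c it went from 48.4, 51.1 and 51.4 CPM to 228, 246 and 208 CPM, a rise of 2.18 ± 0.21. Psmb9 rose in IL4c by 1.70 ± 0.30 and did not pass in TG at 1.02 ± 0.29 (adjusted p = 0.0502; it passed with the block, adjusted p = 0.0193). Psmb10 rose by 0.93 ± 0.24 in TG (adjusted p = 0.0373, lost on leaving out any of 9 of the 12 libraries) and by 1.22 ± 0.25 in IL4c.

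Within each library the ratio of inducible to constitutive FPKM compares the transcripts of the genes for each catalytic position. Which subunits the cores held was not measured. Psmb8/Psmb5 was 0.75, 0.99 and 0.59 in IL4c untreated libraries and 1.73, 1.99 and 1.32 with SPARC, 2.18-fold higher. Psmb9/Psmb6 was 0.43, 0.47 and 0.28 and then 0.89, 1.22 and 0.62 (2.27-fold), and Psmb10/Psmb7 was 0.76, 0.79 and 0.70 and then 1.23, 1.29 and 1.14 (1.63-fold). None of the 3 ratios overlapped between the IL4c groups (exact two-sided permutation p = 0.1 for each, the smallest that 3 against 3 allows, and 0.3 after adjustment over 9 tests). In TG the ratios were 1.58-, 1.81- and 1.45-fold higher with SPARC and overlapped (exact p = 0.2, 0.3 and 0.2), TG untreated library 3 being lowest in each. Between the untreated groups the exact p was 0.3, 0.8 and 0.4. The direction for Psmb9/Psmb6 there turned without TG untreated library 3.

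**Figure D5:**
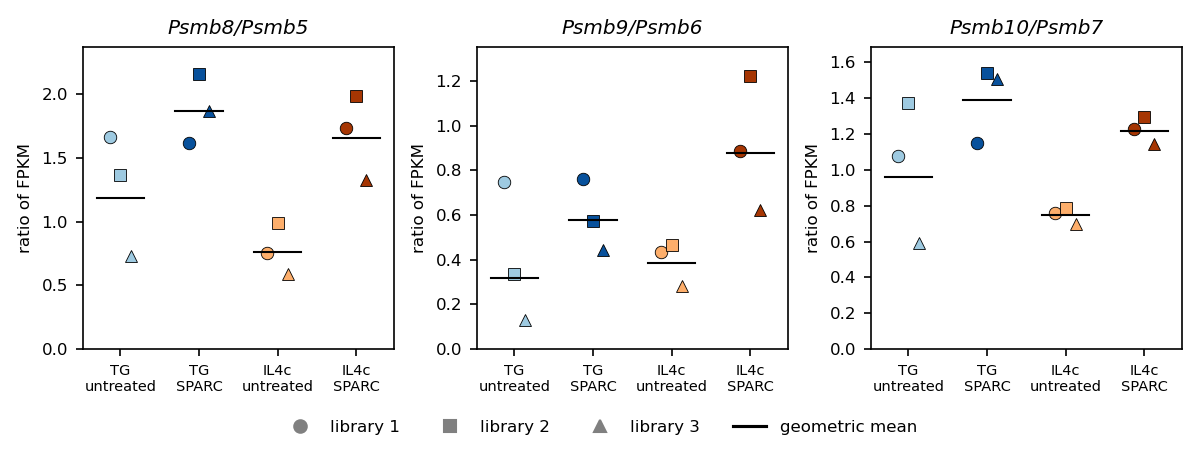
Ratio of FPKM (vertical axis, from 0) of each inducible catalytic gene to the constitutive gene it replaces, in every library, with marker shape for the library number and a line at the geometric mean of each group. IL4c SPARC libraries lie above IL4c untreated ones at all 3 positions, while TG groups overlap.

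Of the 5 activators and inhibitors that dock on the core, 3 rose in TG (Psme1, Psme2 and Psme4), where 6.73% of all genes did, and 4 in IL4c (Psme1, Psme2, Psme3 and Psmf1), where 15.1% did. Their medians were 0.28 in TG and 0.40 in IL4c. Psme1 and Psme2, the interferon-inducible PA28 cap, rose by 0.90 ± 0.17 and 1.41 ± 0.23 in TG and by 1.30 ± 0.17 and 2.01 ± 0.23 in IL4c. Psme3, the nuclear cap, was at 0.16 ± 0.10 in TG and rose by 0.40 ± 0.10 in IL4c, a call lost without IL4c untreated library 2. The TG call of Psme4 (0.28 ± 0.08, adjusted p = 0.0421) was kept in 3 of the 12 fits that each leave out 1 library. Without SPARC, 2 of these 5 were lower in IL4c than in TG, where 10.8% of all genes were. They were Psme1 at -0.63 ± 0.17 and Psme2 at -0.89 ± 0.23, calls kept in 5 and 9 of the 12 fits that each leave out 1 library. The Psme2 counts were not whole in any library.

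Of 5 further assembly chaperones, 0 passed in TG (1 had an unadjusted p under 0.05), where 6.73% of all genes rose, and 3 rose in IL4c, where 15.1% did. Pomp, which matures the new core, had 69.9, 90.3 and 71.1 CPM in TG untreated and 98.0, 96.1 and 95.9 with SPARC (0.33 ± 0.15, adjusted p = 0.192, and 0.0321 with the block). In IL4c it rose from 43.4, 45.6 and 53.9 to 56.0, 67.9 and 82.6 CPM (0.53 ± 0.15, adjusted p = 0.0241), and it was lower in IL4c than in TG without SPARC by -0.69 ± 0.15. Psmg4 and Psmg2 rose in IL4c by 0.43 ± 0.12 and 0.43 ± 0.14. Of the 12 fits that each leave out 1 library, 8 kept the IL4c call of Pomp, 8 that of Psmg4 and 3 that of Psmg2. Of 7 other 19S subunits and bound enzymes, 0 passed in TG (3 had an unadjusted p under 0.05) and 2 rose in IL4c (28.6%, where 15.1% of all genes did). They were Txnl1, a thioredoxin-like protein of the particle, by 0.46 ± 0.10 and the ubiquitin receptor Adrm1 by 0.31 ± 0.09. Of 11 genes tested for ubiquitin and its carriers, 1 rose in TG (9.09%) and 2 in IL4c (18.2%), and 0 fell. These shares were near the 6.73% and 15.1% of all genes that rose. The activating enzyme Uba1 rose by 0.40 ± 0.11 in TG and by 0.43 ± 0.11 in IL4c, and Ubb, a polyubiquitin gene, rose in IL4c by 0.80 ± 0.12. Of the 11 estimates 4 were above 0 in TG and 6 in IL4c, with medians of -0.09 and 0.11. The Adrm1 call was kept in 5 of the 12 such fits, and that of Uba1 in 6 for TG and 11 for IL4c.

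The NRF1 axis is the route through which cells raise proteasome transcription when protein breakdown falls short. Of its 10 genes listed here, 3 rose and 2 fell in TG, where 6.73% and 4.52% of all genes did, and 3 rose and 3 fell in IL4c, where 15.1% and 12.7% did. The other 5 in TG and 4 in IL4c did not pass, and the medians were 0.12 and 0.16. Nfe2l1, which encodes NRF1, had 151, 182 and 186 CPM in TG untreated and 239, 231 and 230 with SPARC (0.43 ± 0.11, adjusted p = 0.0324, a call kept in 4 of the 12 fits that each leave out 1 library). In IL4c it went from 260, 216 and 243 to 468, 404 and 465 CPM (0.89 ± 0.11, adjusted p = 0.000447). No libraries overlapped, and without SPARC it was higher in IL4c than in TG by 0.47 ± 0.11, a call kept in 11 of the 12 such fits. In that comparison 3 of the 36 proteasome genes had an estimate above 0. A link between Nfe2l1 and the proteasome genes was not tested.

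Of its small MAF partners, Maff rose by 1.66 ± 0.31 in TG and 1.99 ± 0.32 in IL4c, with 1.44 to 2.87 CPM across the untreated libraries, and Mafg by 0.41 ± 0.08 and 0.35 ± 0.08, while Mafk was at 0.30 ± 0.20 and 0.43 ± 0.20 and did not pass. Ddi2, the protease that cleaves NRF1 into its active form, fell by 0.47 ± 0.09 in TG and by 0.89 ± 0.09 in IL4c. Ngly1, the glycosidase that removes its sugars, fell by 0.40 ± 0.10 and 0.75 ± 0.10. Nfe2l2, which encodes the related factor NRF2, was at -0.33 ± 0.17 in TG (adjusted p = 0.251) and fell by 0.68 ± 0.17 in IL4c (adjusted p = 0.0149), a call lost without IL4c SPARC library 1 or 3. Protein amounts and NRF1 processing were not measured.

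Some counts may hold reads of other genes. For 9 of the 37 genes (Psma3, Psma4, Psma5, Psmb3, Psmb5, Psmc1, Psmd1, Psmd2 and Psmd11) the deposited counts were not whole in any library, as happens where the counting splits reads with similar sequences elsewhere. For 10 genes annotated exons overlap those of another gene, and the strand setting of the counting is not given in the sources used here. The largest overlaps with a neighbour above 1 CPM were those of Psmb7 with Nek6 (405 bases, 45.1 CPM), Psmc3ip with Mlx (385 bases, 36.6 CPM), Psmd13 with Sirt3 (342 bases, 5.42 CPM) and Psmd1 with Gm21972 (301 bases, 1.59 CPM), followed by those of Psmd1 with Htr2b (252 bases, 30.7 CPM) and Psmc3 with Slc39a13 (215 bases, 20.2 CPM).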

How the data were processed

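RNA-seq of 12 libraries (4 groups of 3) was analysed. Per the submitters' processing notes, CASAVA, bcl2fastq 1.8.4, STAR and RSEM were used; for the genome build, annotation and strand the sources used here name nothing. The authors deposited RSEM expected counts per gene (7.97% of values not whole) and FPKM, which are normalized for length and library total. Gene IDs matched the GENCODE M21 annotation of GRCm38 for 98.9% without version.

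Expected counts were rounded, genes kept with filterByExpr (minimum count 10; 15232 of 47729), scaled by TMM and fitted with edgeR 4.0.16 (R 4.3.3) quasi-likelihood over all 12 libraries (8 residual degrees of freedom), with Benjamini-Hochberg adjustment over all genes tested and a threshold of 0.05. The procedure was checked on simulated counts. SE is the log2 fold change divided by the root of F. Ratios of FPKM were compared by exact two-sided permutation (scipy 1.17.1). Alternatives used DESeq2 1.42.0 and limma 3.58.1 on log2(FPKM + 1) and log2(FPKM + 0.1). No pair of libraries was alike within sampling noise.

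Library numbers come from the titles. Deviations from group means correlated at 0.342 to 0.735 in the 6 same-numbered pairs within an injection and at -0.178 to 0.250 in same-numbered pairs across injections. In the 12 different-numbered pairs within an injection they correlated at -0.659 to 0.507, a range that overlaps the first. Each untreated library correlated most with the SPARC library of its own number, so numbers were taken to pair libraries within an injection. The labels do not say what a number marks, and the pairing is an assumption. Genes given in full were the catalytic genes, the 4 largest passing and 2 smallest changes per comparison, and genes outside the complex; of other lists, counts and the 2 smallest p-values, plus Psmb8, Psmb9, Psmb10, Psme1, Psme2, Psme3, Pomp, Nfe2l1 and Nfe2l2. Members and lists were chosen with earlier results of these data known. In the list of ubiquitin genes, 1 gene is left out and not reported here.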

Additional observations from a re-analysis of the deposited data

How the results depend on the processing

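The IL4c count of 28 higher was 26 to 32 under the alternatives over all libraries and 22 to 30 when 1 library was left out. The TG count of 18 was 10 with total-count scaling, 10 on log2(FPKM + 1), 10 on log2(FPKM + 0.1), 3 on log2(FPKM + 1) without a filter, 8 with the compared groups alone, and 8 to 18 when 1 library was left out; the cause was not tested. The replicate block gave 27 higher in TG and 32 higher and 1 lower in IL4c, and across injections, where numbers share no pairing, 1 higher and 10 lower without SPARC; no call of the 36 genes was lost under it, gained calls within an injection stand beside the genes, and those across injections were Psmb6 (adjusted p = 0.0453) and Psmc2 (adjusted p = 0.0364). Without SPARC the 1 higher became 0 with total-count scaling and in all 3 FPKM settings. The 8 lower became 17 with total-count scaling, 18 and 18 on log2(FPKM + 1) and log2(FPKM + 0.1), 5 without a filter, 2 with the compared groups alone, 15 without both TG libraries numbered 1, and 1 to 15 when 1 library was left out. For the difference of SPARC effects, 1 gene passed with DESeq2, 1 with the replicate block and 1 without both TG libraries numbered 1, and 0 to 1 when 1 library was left out. Over all genes, total-count scaling changed the TG split from 1025 higher and 689 lower to 758 and 938, and the split without SPARC from 1548 and 1649 to 1154 and 2790. For the other settings the split over all genes is not given here. The median FPKM of the subunits in TG untreated, 60.8, was 57.9 after rescaling by TMM factors.

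Signs turned only for estimates near 0 or with wide errors. When 1 library was left out, the change of Psmb6 in TG ranged from -0.14 to 0.45 and that of Psmd8 from -0.39 to 0.28, and that of Psma8 from -0.35 to 0.0092 in TG, from -0.22 to 0.22 in IL4c and from -0.35 to 0.073 without SPARC. Without SPARC, Psmc6 ranged from -0.11 to 0.036, Psmd10 from -0.085 to 0.025 (0.025 without both TG libraries numbered 1) and the log2 ratio Psmb9/Psmb6 from -0.38 to 0.90. For the difference, Psmb7 ranged from -0.058 to 0.12, Psmb1 from -0.077 to 0.065, Psmb2 from -0.10 to 0.066, Psma8 from -0.047 to 0.39, Psmc3ip from -0.077 to 0.94 and Psmb10 from -0.053 to 0.56. That of Psmb1 was 0.053 with total-count scaling, 0.055 on log2(FPKM + 1), with or without the filter, 0.056 on log2(FPKM + 0.1) and 0.0026 without both TG libraries numbered 1. That of Psmb2 was 0.050 with total-count scaling, 0.056 on log2(FPKM + 1), with or without the filter, and 0.058 on log2(FPKM + 0.1).

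With 3 libraries per group, single changes under about 1.3-fold mostly did not pass, and permutation tests of the ratios cannot go below 0.1.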
